A study of Homo sapiens with 6 samples.

Results

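The transcripts of 52 human genes of homologous recombination, the Fanconi pathway and related DNA repair were examined in the acute myeloid leukaemia cell line FUJIOKA. The genes were listed by name, and all 52 were found among the 63236 genes of the deposited table. Of them 24 act in recombination or the Fanconi pathway and 8 in end joining or mismatch repair. The others act in end resection, junction processing, damage signalling and base excision.

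The study sequenced bulk RNA of 3 libraries with a non-targeting shRNA (shNEG) and 3 with an shRNA against SPINK2 (shSPINK2), both expressed in response to doxycycline from a lentiviral vector in puromycin-selected cells. The control cells therefore carry vector and drug too. Sample labels describe 2 SPINK2 shRNAs whereas the methods describe 1, and no label says which hairpin a library carries. The value examined here is 1 mean normalized count per gene, taken by the authors over all 6 libraries. It pools both shRNAs, so the difference between shSPINK2 and shNEG was not tested here, and no level below has a replicate error. Columns of the authors' own comparison were not used.

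Homologous recombination repairs a broken chromosome by copying an intact sister chromatid, and is active in cells that replicate their DNA. BRCA1 and BRCA2 with their partners load a recombinase onto resected ends, and the Fanconi proteins unhook crosslinks between the strands and pass the break to recombination. End joining instead ligates the ends directly, at any stage of the cell cycle, after the Ku heterodimer has bound them. Mismatch repair removes bases mispaired in replication. Germline loss of recombination or Fanconi genes is a known route to bone marrow failure and leukaemia.

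The table's means sum to 38425214 reads per library, and 32220 genes have a mean above 0. The 52 repair genes hold 191222 of these reads (0.498%). Myeloid genes were abundant, with means of 44097 for LYZ, 32858 for CEBPA, 10672 for SPI1 and 7777 for CD33, whereas CD34 had 19.6 and KIT 0.666. The defining genes of other lineages were at or near 0 for EPCAM, HBB, CD3E, MS4A1 and PAX5. TRAC (299), CD79A (183) and COL1A1 (149) were above that, and their part in the values below was not tested.

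Levels between genes were compared per kilobase of coding length, because long transcripts collect more reads. Per kilobase of exon length, which counts the bases of all annotated exons, some pairs stood closer or in another order, as given below. On the coding scale the highest of the 52 genes belonged to end joining. XRCC6 and XRCC5, which encode the Ku subunits that bind broken ends, stood at 18813 and 11803 mean normalized counts per kilobase. PRKDC, the kinase that Ku recruits, followed at 2093. LIG4, the ligase that seals the ends, stood at 451, its partner XRCC4 at 726, and TP53BP1, which protects ends from resection, at 472. The highest and lowest gene of end joining differed by 41.7-fold, against 50.3-fold among recombination mediators and 233-fold among the signalling kinases and their partners. In bulk RNA such a level cannot tell the number of expressing cells from the amount of RNA per cell.

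Before length was taken into account, XRCC5 and PRKDC had nearly equal means of 25920 each, and XRCC6 had 34372. These 3 genes hold 45.1% of all reads of the 52 genes. The coding sequence of PRKDC measures 12384 bases and that of XRCC5 2196 bases. Per kilobase, XRCC5 was therefore 5.64 times PRKDC (95% counting interval 5.60 to 5.68), and XRCC6 1.59 times XRCC5, with intervals of the 2 levels that do not overlap. Intervals of single genes and pairs are exact Poisson and binomial intervals for the reads of 6 libraries, and that of a ratio of medians is a normal approximation to them. They cover counting error only and leave out the spread between libraries and the choice of length. Reads carry no molecular identifiers.

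**Figure D1:**
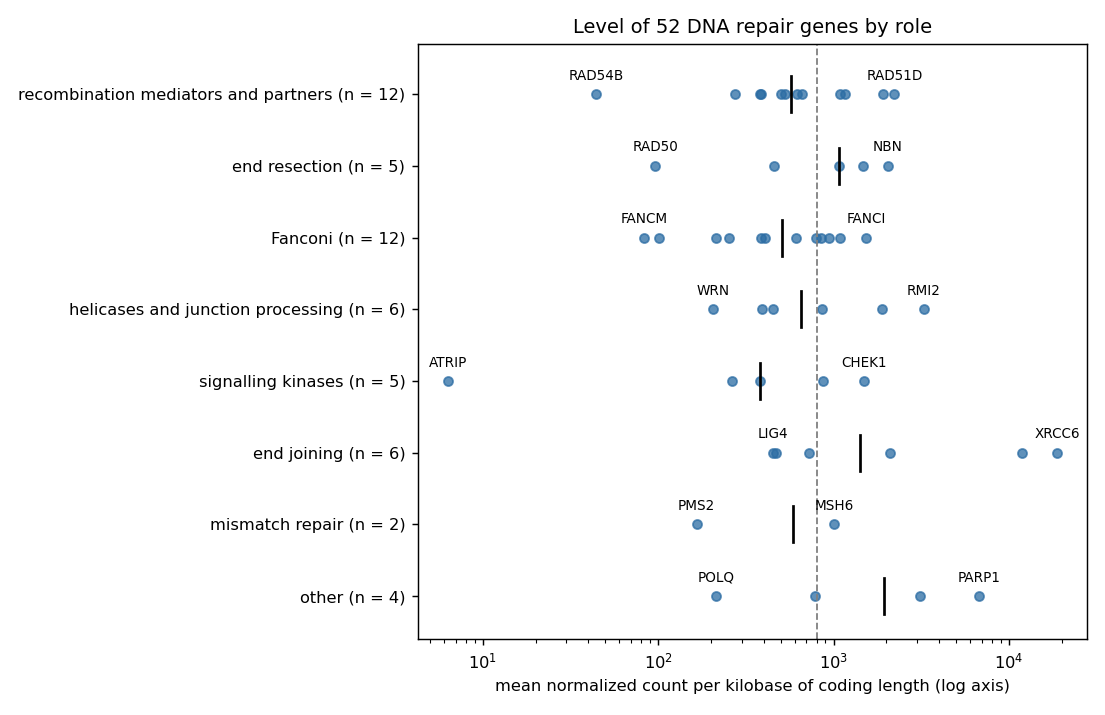
Each point is 1 of 52 repair genes, placed by its mean normalized count per kilobase of coding length on a log axis and by its role on the vertical axis. The lowest and highest gene of each role are named, black bars mark the role's median, and the dashed line marks the median of 12444 protein-coding genes at 804. XRCC6 and XRCC5 stand to the right at 18813 and 11803, and ATRIP to the left at 6.36.

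Recombination and Fanconi genes spread over a wide range of levels, from 44.2 per kilobase for RAD54B to 2227 for RAD51D. The 24 genes had a median of 568 per kilobase, and the 8 genes of end joining and mismatch repair had 867, a ratio of 1.53 (95% counting interval 1.49 to 1.56). The ranges overlapped: 6 of the 8 lay within the range of the 24, 3 lay below their median, and only XRCC5 and XRCC6 lay above every recombination and Fanconi gene. Without XRCC5, XRCC6 and PRKDC, a choice made after the values were seen, the ratio turned to 0.830. The order of the medians thus rests on the 3 genes of the DNA-dependent protein kinase. Genes are not replicates, and no test was made.

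Ranked among the 12444 protein-coding genes that reach a mean of 10 or more, whose median was 804 per kilobase, the recombination and Fanconi list was on the low side. Its median gene stood above 41.8% of them, and 8 of the 24 genes were above the median of all. The highest, RAD51D, exceeded 74.5%. The 3 highest of the 52 genes exceeded 97.2% (XRCC6), 95.4% (XRCC5) and 91.1% (PARP1). In terms of depth 37 of the 52 genes had a mean of at least 1000, and 1 gene, ATRIP, had a mean under 50.

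Among the genes that load and assist the recombinase, BRCA2 had the largest mean, 3962, yet stood at 386 per kilobase because its coding sequence measures 10254 bases. BRCA1, the ubiquitin ligase that promotes resection, had 617, and BARD1, its obligate partner, 499. BRCA1 was thus 1.24 times BARD1 (1.20 to 1.27). PALB2, which bridges BRCA1 and BRCA2, was lower than both at 276, and BRCA1 was 2.24 times PALB2 (2.17 to 2.30). RAD51AP1, a partner of the recombinase that stimulates strand invasion, was among the highest at 1913.

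The recombinase paralogs, small proteins that work in shared complexes, were unequal. RAD51D stood at 2227 per kilobase, RAD51C at 1160, XRCC3 at 1090, XRCC2 at 665 and RAD51B at 379. RAD51D was 3.35 times XRCC2 (3.22 to 3.48), with which it forms a direct contact, and RAD51C was 3.06 times RAD51B (2.92 to 3.21). RAD51C and XRCC3, which form a complex of their own, differed least, by 1.06 times, with a lower bound of 1.03. Per kilobase of exon length RAD51C stood at 79.8, below XRCC3 at 151. Exons of XRCC3 share 76.7% of their bases with genes on the opposite strand, the largest part with KLC1. Whether reads were counted by strand, and how reads on exons of more than 1 gene were treated, is not given in the sources used here. The part of this overlap in the level of XRCC3 was not tested. KLC1 had a mean of 1436.

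Of the Fanconi genes, FANCI and FANCD2, which encode the clamp that the pathway ubiquitinates, were prominent. FANCI had a mean of 6133 and 1539 per kilobase, the highest of the 12, and was 1.94 times FANCD2 (794, interval of the ratio 1.91 to 1.97). FANCG was above FANCI per kilobase of exon length (364 and 344). The subunits of the core ubiquitin ligase differed widely. FANCG stood at 1083, FANCF at 943, FANCL, its catalytic subunit, at 845, FANCC at 610, FANCA at 408 and FANCE at 387. FANCB, the X-linked subunit that joins FANCL in the catalytic module, stood at 101, so that FANCL was 8.35 times FANCB (7.89 to 8.83). The gap depends on the length used (25.0 for FANCL and 19.6 for FANCB per kilobase of exon length). FANCM, the translocase that anchors the core complex on DNA, was the lowest of the list at 83.2. The helicase BRIP1 had 252 and the nuclease scaffold SLX4 had 213.

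The kinases and their partners gave the lowest of all 52 genes. CHEK1, which halts replication under stress, stood at 1485 and CHEK2, its counterpart after breaks, at 869. The upstream kinases were lower on this scale, ATM at 382 and ATR at 265, with means of 3503 and 2102. ATRIP, the subunit that brings ATR to single-stranded DNA, stood at 6.36 per kilobase. Its mean was 15.1, and ATR was 41.5 times ATRIP (33.7 to 51.5).

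Resection and junction genes showed similar gaps between partners. NBN and MRE11, which sense breaks and trim them, stood at 2034 and 1481 (237 and 410 per kilobase of exon length). RAD50, the ATPase of the same complex, stood at 96.1 (35.8). NBN was 21.2 times RAD50 (20.3 to 22.1), and MRE11 15.4 times (14.7 to 16.1). RBBP8, which activates MRE11, had 1079 and the exonuclease EXO1 456. In the dissolvasome RMI2 stood at 3272, RMI1 at 858 and the helicase BLM at 392 (400, 470 and 211 per kilobase of exon length). The coding sequence of RMI2 measures 441 bases, and its mean (1443) was below that of RMI1 (1609). MUS81, the nuclease that cuts junctions, had 1899 and its partner EME1 451, a ratio of 4.21 (4.08 to 4.35). The helicase WRN had 206. RAD54L, a motor protein of strand exchange, had 526, and its homologue RAD54B 44.2, so that RAD54L was 11.9 times RAD54B (11.0 to 12.8).

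In mismatch repair MSH6, which recognises mispairs, stood at 1008 per kilobase and PMS2, the endonuclease subunit, at 166. Of the remaining genes PARP1, the sensor of strand breaks, had 6757 and POLQ, the polymerase of alternative end joining, 215. The uracil glycosylase UNG had 3098 and NEIL3, a glycosylase of replicating cells, 788. In the order of the 52 levels, 19 of the 51 neighbouring pairs had overlapping counting intervals, among them BRCA1 with FANCC, BRCA2 with ATM, and FANCB with RAD50.

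ATRIP, RAD54B and RAD50, which rank 52, 51 and 49 of the 52 levels, share a feature of the annotation that the list did not use. Other low genes lack it or nearly so, FANCM at rank 50 with 0% and FANCB at rank 48 with 6.35% of exon bases shared on the same strand. Shares count exon bases covered by any other gene on the strand in question, and the gene named is the one with the largest part. In GENCODE 44, ATRIP (chromosome 3, 48446710 to 48467645, plus strand, GRCh38) shares 26.7% of its exon bases on the same strand, the largest part with TREX1. RAD54B (chromosome 8, 94371960 to 94475115, minus strand) shares 66.0%, the largest part with FSBP. RAD50 (chromosome 5, 132556019 to 132646349, plus strand) shares 76.9%, the largest part with ENSG00000283782, a readthrough locus that spans most of it. The genes with the largest part were themselves nearly without reads in the table, with means of 0 for TREX1, 0.502 for FSBP and 5.82 for ENSG00000283782.

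The threshold of 25% was set after the values had been seen, and ATRIP lies just above it. No other member shared 25% or more of its exon bases on the same strand, the next being RAD51D with 8.89% at a level of 2227. Genes with opposite-strand overlap were not low to the same degree, with 1090 per kilobase for XRCC3 and 472 for TP53BP1 (28.8% shared, the largest part with TUBGCP4). A read that falls on exons of more than 1 gene is left unassigned by featureCounts as set by default, and the setting used is not given in the sources used here. The part of this overlap in the low levels was not tested. The annotation release behind the table is not given either, and its overlaps may differ from those of GENCODE 44.

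Over all 19708 protein-coding genes matched, 1071 share at least 25% of their exon bases on the same strand. Of these 61.0% had a mean under 10, with a median of 2.33. Of the 18637 other genes 35.5% had a mean under 10, with a median of 307. Among 782 genes with such overlap on the opposite strand alone, the share was 27.9%. The 1071 may include the overlapping loci themselves, such as readthrough genes, and the sets were not matched in kind. The shares describe these sets of genes, and how many reads ATRIP, RAD54B or RAD50 lose or gain through shared exons was not tested.

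**Figure D2:**
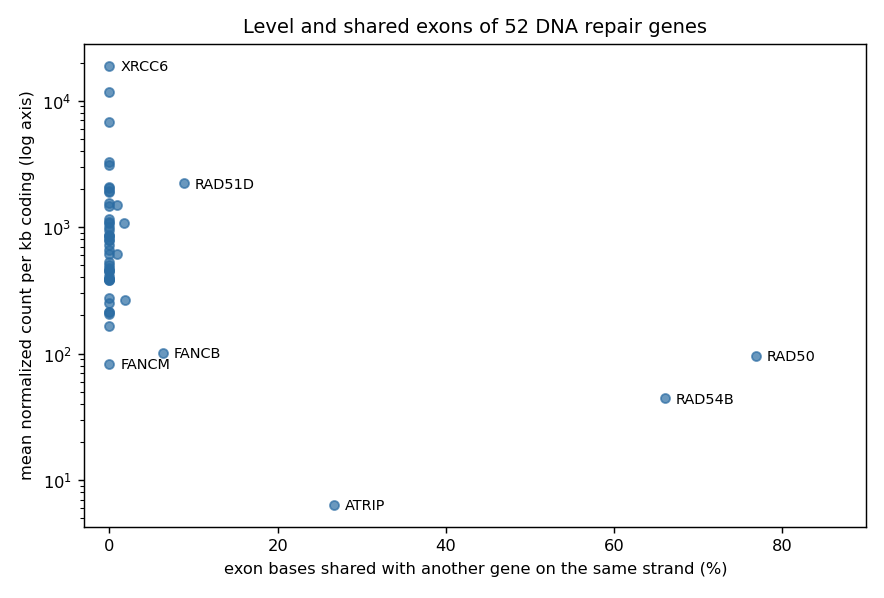
Each point is 1 of 52 repair genes, with the percentage of its exon bases shared with another gene on the same strand on the horizontal axis and its mean normalized count per kilobase of coding length on a log vertical axis. ATRIP, RAD54B and RAD50 lie to the right at 26.7%, 66.0% and 76.9%, with levels of 6.36, 44.2 and 96.1.

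From a second list of 47 other repair genes, all had a row in the table, and their median was 894 per kilobase. The histone gene H2AX, whose product marks broken chromatin, was the highest at 7218. The lowest were SLX1A at 3.01 and NHEJ1 at 27.4, the 2 genes of the list with a mean under 50. SLX1A, a nuclease that works with SLX4, shares 85.6% of its exon bases on the same strand, the largest part with a readthrough gene. It also has a near-identical copy. NHEJ1, an end joining factor that aligns ends with XRCC4, shares 19.5%, the largest part with ENSG00000280537 (mean 29.7). BABAM1 is an exception, with 32.9% shared (the gene with the largest part listed at 0) and a level of 1362.

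Many repair genes begin close to another gene. For 19 of the 52 (36.5%) a protein-coding gene on the opposite strand starts within 1000 bases upstream in GENCODE 44. The share was 11.3% among the 12444 ranked protein-coding genes and 8.41% among all protein-coding genes. Neighbouring starts were looked for after the levels had been seen. A start here is the outer end of the annotated gene, which need not be the start most used in these cells. Which annotated start the reads of a gene such as BRCA1 come from was not tested. The pairs include BRCA1 with NBR1, ATM with NPAT, RAD51C with TEX14 and PRKDC with MCM4, a replicative helicase gene whose start lies 7 bases away.

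The stretches between the starts of 4 such pairs are shown, read 5′ to 3′ on the strand of the repair gene, because each is short, lies upstream of both genes at once and parts genes of unlike level. They were taken as stretches of over 30 bases that the promoter table holds whole, and those beside WRN and PRKDC are not shown. Sequences are from RefSeq promoters (GRCh38.p14), and capitals mark the NF-Y word CCAAT or its complement ATTGG, and E2F words, of which the stretch of SLX4 holds none.
PALB2, chr16:23641322-23641465, minus strand: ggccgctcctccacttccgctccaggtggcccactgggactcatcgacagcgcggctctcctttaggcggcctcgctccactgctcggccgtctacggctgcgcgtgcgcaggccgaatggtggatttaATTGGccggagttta
MRE11, chr11:94493886-94493978, minus strand: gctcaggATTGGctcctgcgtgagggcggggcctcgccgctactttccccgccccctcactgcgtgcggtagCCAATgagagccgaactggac
SLX4, chr16:3611607-3611727, minus strand: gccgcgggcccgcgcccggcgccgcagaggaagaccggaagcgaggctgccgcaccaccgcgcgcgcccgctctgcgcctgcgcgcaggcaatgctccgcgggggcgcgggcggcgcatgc
PMS2, chr7:6009131-6009254, minus strand: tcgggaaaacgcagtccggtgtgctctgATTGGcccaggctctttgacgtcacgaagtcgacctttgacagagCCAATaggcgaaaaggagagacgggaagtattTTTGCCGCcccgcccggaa

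Per kilobase of coding length the genes of these pairs were unequal. DCTN5, a dynactin subunit, stood at 8911 and was 32.3 times PALB2. AIMP2, a scaffold of aminoacyl-tRNA synthetases, stood at 984 and was 5.93 times PMS2. DNASE1, a secreted nuclease gene, stood at 828 and was 3.89 times SLX4. In contrast ANKRD49 stood at 855, below MRE11 at 1481. Over the 19 pairs the neighbour had the higher level in 10 and the repair gene in 9.

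The gaps ran in both directions. FKBP3, a prolyl isomerase gene, was 41.2 times FANCM, and HNRNPK, an RNA-binding protein gene whose start lies 167 bases from that of RMI1, stood at 26986 per kilobase, 31.4 times RMI1. Further, MCM4 was 2.24 times PRKDC, and NBR1, an autophagy receptor gene, 1.55 times BRCA1. At the other end TEX14, a germ cell gene beside RAD51C, stood at 8.05, MAP1A beside TP53BP1 at 8.23, PURG beside WRN at 16.6 and FNDC8 beside RAD51D at 18.3. These 4 neighbours were nearly silent beside expressed repair genes.

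**Figure D3:**
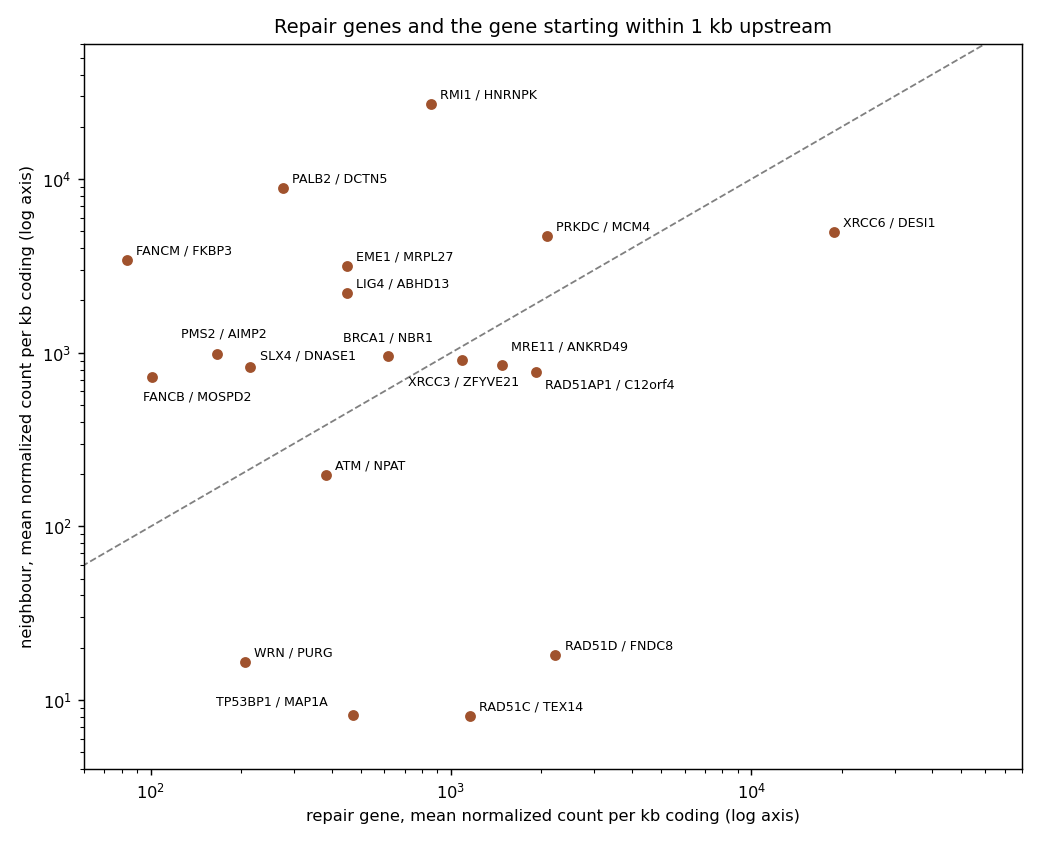
Each of the 19 points is a repair gene whose start lies within 1000 bases of that of a protein-coding gene on the opposite strand. Starts are the outer ends of the annotated genes. The mean normalized count per kilobase of coding length of the repair gene is on the horizontal log axis and that of its neighbour on the vertical log axis. Points above the dashed line of equal levels are the 10 pairs with a higher neighbour, such as RMI1 and HNRNPK at 858 and 26986, and 4 neighbours lie at the bottom between 8.05 and 18.3.

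Words of cell cycle and housekeeping promoter factors were counted in the 250 bases upstream of the RefSeq start, on both strands, for the 45 members in the promoter table. The NF-Y word CCAAT was found in 21 of 45 (46.7%), against 32.0% of 35116 promoters. E2F words (TTTCCCGC, TTTGGCGC, TTTCGCGC or TTTGCCGC) occurred in 3 of 45 (6.67%), namely FANCA, FANCC and PMS2, against 2.79% of all. The word TTTGAA of the cell cycle homology region was found in 5 of 45 (11.1%, against 13.3%) and the NRF1 word CGCATGCG in 1 (2.22%, against 1.73%). CCAAT was found in 8 of 22 recombination and Fanconi promoters and in 4 of 6 of end joining and mismatch repair, counts too small to set against each other. The G and C content was 63.4% for the members and 57.2% for all promoters. The sets are unlike in other ways. For each member only the first promoter listed was used, and any other start was not searched. The 35116 may hold several per gene and were not limited to expressed or protein-coding genes. A match describes letters, not binding.

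Single libraries could be reached for the lowest genes alone. Where a gene has a single read in all, its mean is set by the size factor of the library that holds the read. The 6 values that such genes share, 3528 genes in all, gave size factors of 1.03, 1.01, 1.00, 1.00, 0.999 and 0.985 (libraries 1 to 6). From the 15 digits of a low mean the whole reads of each library can then be solved for. Among 300 genes drawn from those whose mean lies from 10 to 35, a single solution was found for 299. When the mean was moved by a millionth of a read, 0 of them had any. The libraries recovered so carry no label, and enter no comparison of shRNAs.

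The targeted gene SPINK2, a serine protease inhibitor, had a mean of 32.3, and its reads were 7, 9, 56, 63, 53 and 6 in libraries 1 to 6. ATRIP had 14, 12, 15, 15, 21 and 14 reads in the same order, 91 in all. These lie between 12 and 21. NHEJ1 had 19, 26, 23, 31, 23 and 26 reads, and SLX1A had between 0 and 4.

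RAD54B had 4 solutions with every library between 0 and 2.2 times its mean of 121. The narrower search below was set after the wider one had been seen. In only 1 of the 4 did every library lie between 0.4 and 1.6 times the mean, and it gave 62, 101, 166, 156, 170 and 72 reads. In this solution the highest library has 170 reads and the lowest 62. In the 3 other solutions at least 1 library has 36 reads or fewer and another 201 or more, and the mean alone does not choose between the 4. The reads of SPINK2 themselves reach outside the narrower range, so the reads of RAD54B are uncertain. For FANCB, with a mean of 261, 9 solutions remained even in the narrower range, and no reads are given. The 49 members with a larger mean were not solved.

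**Figure D4:**
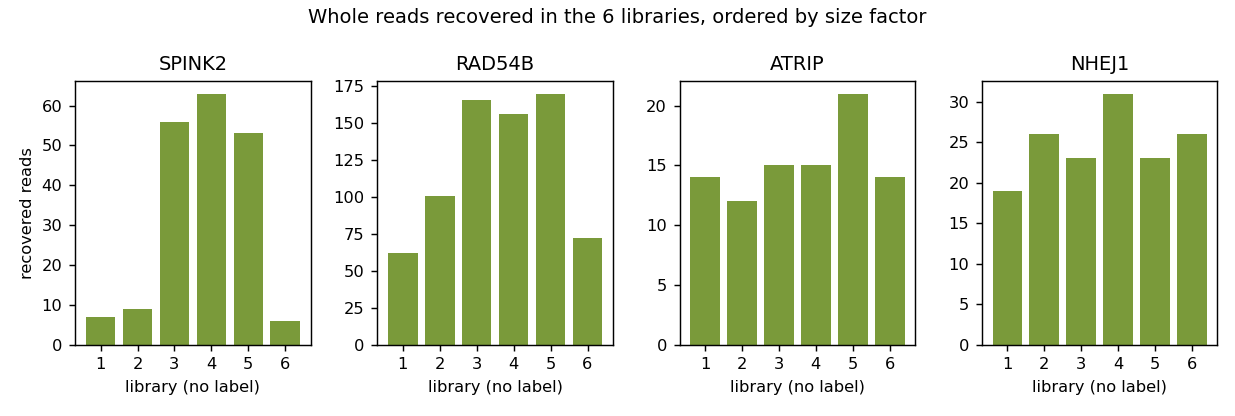
Bars give whole reads recovered per library for SPINK2, RAD54B, ATRIP and NHEJ1, each panel on its own linear axis from 0, with libraries ordered from the largest size factor (library 1) to the smallest (library 6) and without an shRNA label. SPINK2 ranges from 6 to 63 reads, RAD54B from 62 to 170 in the solution shown, ATRIP from 12 to 21 and NHEJ1 from 19 to 31.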

How the data were processed

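RNA of 6 FUJIOKA libraries was aligned by the authors to GRCh38 with STAR (2.7.11 in the submitters' processing notes), counted with featureCounts and normalized with DESeq2 (1.40.0). Annotation release, strandedness and treatment of ambiguous reads are not given in the sources used here. The column used is a signal deposited by the authors, the mean over all libraries of counts divided by size factors. The 6 other value columns hold the authors' comparison of shSPINK2 with shNEG (fold change, standard error, statistic, p-value, adjusted p-value and direction), and were not used. No column holds single libraries, so the planned group test was not made.

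Coding length of the canonical transcript, exons and starts came from GENCODE 44 by Ensembl ID, which matched 91.1% of genes. Named genes are all members by role and, of the second list, the extremes, with genes singled out for shared exons or starts, and promoters printed, chosen after their values were seen, as were the pairs of partners and the promoter words. Members and lists were chosen with earlier results of these data known. Reads were recovered with a tolerance set by the 15 digits deposited. The recovery was tested on simulated data. Software was scipy 1.17.1, numpy 2.4.6 and pandas 2.3.3 under Python 3.11.15, with matplotlib 3.10.9.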

Additional observations from a re-analysis of the deposited data

How the results depend on the processing

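The ratio of the median levels, end joining and mismatch repair over recombination and Fanconi, was 1.53 per kilobase of coding length. It was 3.01 without division by length, 1.81 per kilobase of exon length, 2.48 without MSH6 and PMS2, and 2.75 between geometric means. It stayed at 1.53 with POLQ and PARP1 added, or with a minimum mean of 50, but neither setting could move it. POLQ and PARP1 lie below and above the middle of the list they join, and the minimum removed no gene of either list. Of the 2 alternatives chosen after seeing the data, leaving out members with shared exons on the same strand gave 1.42, and leaving out XRCC5, XRCC6 and PRKDC reversed the order (0.830). ATRIP had 1 solution under each alternative, and RAD54B 1 with 5 times the tolerance and 4 in the wider search. Leaving out a replicate, other normalizations, filters and tests of counts were not run, since the mean is pooled. No paired analysis was possible because the table has no column per library. Depth limits only the lowest members, and the pooled mean hides the spread between libraries for all members but ATRIP.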

Other observations

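The recovered reads of the libraries, which carry no label, fell into separate ranges for SPINK2, with 6, 7 and 9 reads in libraries 6, 1 and 2 and 53, 56 and 63 in libraries 5, 3 and 4. For ATRIP, libraries 1 to 6 had 14, 12, 15, 15, 21 and 14 reads, a spread that shows no comparable gap. NHEJ1 had 19, 26, 23, 31, 23 and 26 reads, also without such a gap. RAD54B can be read in 4 ways. The first gives 62, 101, 166, 156, 170 and 72 reads in libraries 1 to 6, and another gives 107, 201, 36, 154, 83 and 147. The search range that leaves the first alone was set after all 4 had been seen, and the reads of SPINK2 fall outside it. No average or test was made over these libraries, as the labels do not say which of them is which.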
